A study of Bos taurus with 9 samples.

Results

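Chemokines, interleukins and members of the tumour necrosis factor (TNF) families, with their receptors, were described across abdominal adipose tissue, subcutaneous adipose tissue and longissimus dorsi muscle of cattle. The members are the genes of a bovine Affymetrix array whose probe sets carry exactly 1 symbol, where that symbol starts with CCL, CCR, CXCL or CXCR and a digit, with IL and a digit, or with TNFSF or TNFRSF. This rule found 108 probe sets for 82 of the 9155 genes with a symbol. The 82 genes were 14 CC chemokines, 11 CXC chemokines, 8 chemokine receptors, 20 interleukins with their secreted regulators, 19 interleukin receptor chains, 3 TNF ligands and 7 TNF receptors. For the 19 genes with more than 1 probe set, the brightest one, by its average across the 9 arrays, is given for the gene.

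The samples came from Yan yellow cattle, all bulls aged 24 months and kept under the same conditions, with 3 arrays for each tissue. No treatment was given, and which samples share an animal is not stated in the labels. A p-value therefore measures only the spread between these samples. Each array holds whole tissue. Fewer cells of a type and less RNA per cell therefore cannot be told apart in any difference given here.

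Chemokines are small secreted proteins that guide the movement of leukocytes through receptors that couple to G proteins, and the CC and CXC families are named for the spacing of their first cysteines. Interleukins act mostly through receptor chains that signal by Janus kinases and STAT factors, or, for the interleukin-1 family, through MYD88 and NF-κB. TNF receptors recruit adaptors that lead to NF-κB, to stress kinases or to cell death. In adipose tissue of mouse and human, these signals come from adipocytes, stromal cells, endothelium and resident macrophages.

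All values are log2 of the deposited intensity, each SE is limma's moderated one, and a gene is said to pass, rise or fall at a limma adjusted p under 0.05, adjusted over all 24016 probe sets tested. The 9 arrays had medians of 5.89 on each abdominal array, 5.87 to 5.92 on the subcutaneous arrays and 5.75 to 5.79 on the muscle arrays. A tissue mean under 6 is taken as near background, where the size of a difference is not exact, and 46 of the 82 members lay under 6 in all 3 tissues. The 3'/5' intensity ratio of the actin control, a sign of RNA integrity, was 2.24 to 5.69 in abdominal fat, 3.86 to 8.17 in subcutaneous fat and 0.963 to 1.04 in muscle. That of the GAPDH control was 1.26 to 1.62, 1.21 to 1.74 and 0.937 to 1.01 in the same order of tissues. Both ratios moved with every difference between fat and muscle given below, and their part in them was not tested. The tissue labels matched their markers: all 6 adipocyte markers were higher and all 6 skeletal muscle markers lower in adipose tissue than in muscle.

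The depots were compared first. CXCL14, a chemokine made by epithelial and stromal cells in mouse and human, had log2 values of 7.83, 5.30 and 6.53 on the 3 abdominal arrays, against 10.48, 10.81 and 10.96 on the subcutaneous arrays. The muscle arrays held 8.69, 8.24 and 8.66. The 3 tissues did not overlap, with abdominal fat lowest, muscle between and subcutaneous fat highest. The depot difference was -4.19 ± 0.50 (SE, abdominal minus subcutaneous, 3 arrays each), or 18.3-fold lower in abdominal fat. Its abdominal values spread more than any other tissue's, with an SD of 1.27 against 0.24 in subcutaneous fat.

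IL6, a cytokine of the acute phase that signals through IL6R and the shared chain gp130, ran the other way. Abdominal arrays held 7.56, 6.46 and 7.38, subcutaneous arrays 4.06, 4.92 and 3.50, and muscle arrays 3.68, 3.21 and 3.27. The abdominal arrays stood above all others, and subcutaneous fat overlapped muscle. The depot difference was 2.97 ± 0.37 (SE, abdominal minus subcutaneous, 3 arrays each), with a subcutaneous mean of 4.16 near background. With 32 added to each intensity before log2, which compresses dim values, it was 1.77. CXCL14 and IL6 were picked for this depot difference, so its size is a description without a test. They were also the only members of the 82 to pass between the depots in the limma fit over all probe sets, or 2.44% of members, where 1.31% of all probe sets and 1.5% of the brightest probe sets of all genes passed. As both were picked for this contrast, nothing is read from that share.

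Against muscle, the depots stood on opposite sides for CXCL14. Abdominal fat was lower than muscle by -1.97 ± 0.50 (limma adjusted p = 0.00869) and subcutaneous fat higher by 2.22 ± 0.50 (adjusted p = 0.00455). The mean of both depots hid this, with an adipose minus muscle difference of 0.12 ± 0.43 (adjusted p = 0.828). For IL6, abdominal fat was higher than muscle by 3.75 ± 0.37 (adjusted p = 2.92e-05), while the subcutaneous difference of 0.78 ± 0.37 did not pass (adjusted p = 0.111). These comparisons share the muscle arrays, and each uses a depot that entered the choice of both genes.

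**Figure D1:**
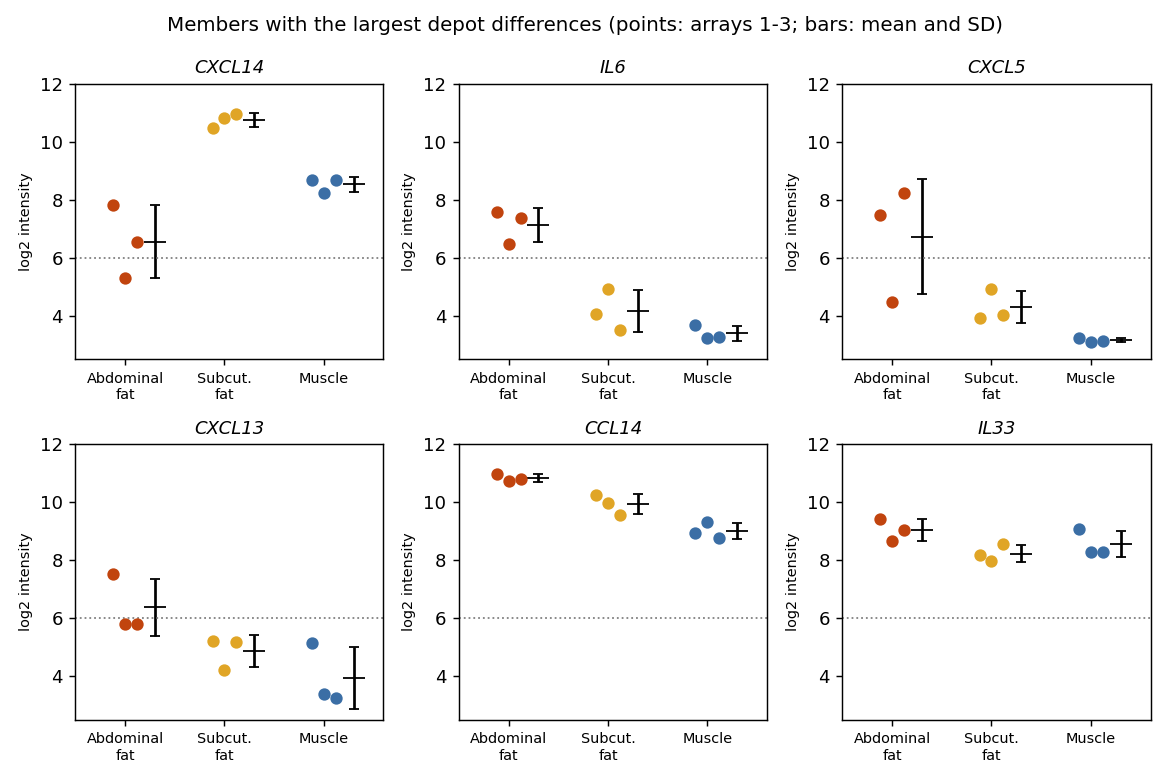
Log2 intensity (y axis) on each of the 3 arrays of abdominal fat, subcutaneous fat and muscle (points), with mean and SD (bars), for the 6 members with the largest depot differences; the dotted line marks a log2 value of 6. CXCL14 separates all 3 tissues, IL6 is high on all 3 abdominal arrays, and CXCL5 is low on abdominal array 2.

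The other 80 members did not pass between the depots. CXCL5, which attracts neutrophils through CXCR2, had 7.47, 4.48 and 8.23 on the abdominal arrays, against 3.90, 4.93 and 4.03 on the subcutaneous arrays. Arrays 1 and 3 of abdominal fat were far above every subcutaneous array, and array 2 lay among them. The difference was 2.44 ± 0.77 (adjusted p = 0.169), and without abdominal array 2 it was 3.56 (adjusted p = 0.00471). CXCL13, which draws B cells through CXCR5, had 7.52, 5.80 and 5.81 in abdominal fat, against 5.23, 4.23 and 5.17 in subcutaneous fat. These groups did not overlap, but the difference of 1.5 ± 0.59 did not pass (adjusted p = 0.27).

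Markers of mesothelium, the lining that covers abdominal fat, varied over the same abdominal arrays. MSLN, UPK3B and KRT19 were the 3 measured of 6 listed. KRT19 read 8.16, 5.38 and 7.26 on the abdominal arrays, against 6.26, 6.76 and 6.28 on the subcutaneous arrays. MSLN read 6.32, 4.39 and 6.41 in abdominal fat, against 4.04, 4.20 and 3.97 in subcutaneous fat. UPK3B read 7.17, 5.53 and 6.33 in abdominal fat, against 4.78, 5.53 and 5.53 in subcutaneous fat. The summed intensity of the 3 was 108.9 to 509.7 in abdominal fat, 120.4 to 173.2 in subcutaneous fat and 78.81 to 82.24 in muscle, and none of them passed between the depots in limma (adjusted p = 0.122 for MSLN, 0.204 for UPK3B and 0.767 for KRT19). Abdominal array 2 was the lowest abdominal array for all 3 markers, for CXCL5, for IL6 and for CXCL14. The depot difference of CXCL14 ran opposite to those of IL6 and CXCL5. Abdominal array 2 was also the highest abdominal array for all 7 macrophage and all 4 neutrophil markers measured. The macrophage marker CD68, for example, read 8.27, 10.23 and 9.57. The part of any of these markers in these results was not tested.

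CCL14, a chemokine found in plasma in human, came nearest to passing among the rest. It had 10.98, 10.72 and 10.81 in abdominal fat, against 10.27, 9.98 and 9.57 in subcutaneous fat. The depots did not overlap, and the difference of 0.90 ± 0.20 had an adjusted p of 0.0643. IL4R, the receptor chain shared by interleukin-4 and interleukin-13, was 6.81, 7.12 and 6.97 in abdominal fat, against 7.54, 7.77 and 7.54 in subcutaneous fat. These did not overlap either (-0.65 ± 0.16, adjusted p = 0.0929). IL33, a nuclear cytokine of endothelium and stroma released on damage, differed by 0.81 on its brightest probe set (adjusted p = 0.189) and by 0.90 on the second (adjusted p = 0.0773). In all, 15 members (18.3%) had an unadjusted depot p under 0.05, a share near the 18% of all genes.

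**Figure D2:**
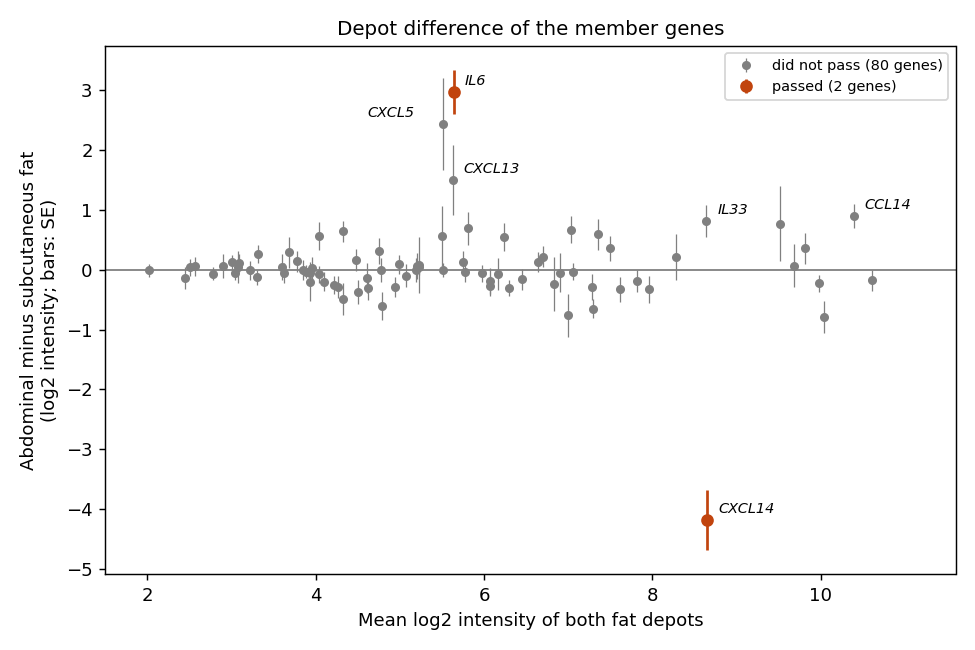
Abdominal minus subcutaneous difference in log2 intensity with its SE (y axis) against the mean log2 intensity of both depots (x axis) for all 82 members. CXCL14 at -4.19 and IL6 at 2.97, both picked for this contrast, passed, and the other 80 did not.

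Both depots averaged were then set against muscle. Of the 82 members 37 passed, 24 higher and 13 lower in adipose tissue. That is 45.1% of the members, beside 52.6% of all probe sets and 61.4% of the brightest probe sets of all genes. The median difference was 0.05 over the members and -0.02 over all genes. Higher members were 29.3%, beside 32% of all genes, and lower members were 15.9%, beside 29.5%. Among the 36 members with a tissue mean over 6, 69.4% passed, beside 70.5% of genes with such a mean. Of these members 58.3% were higher and 11.1% lower, beside 39.8% and 30.7% of those genes. Of the 46 dim members 26.1% passed, beside 34.9% of dim genes. A gene can reach 6 through the tissue where it is high, so these shares are descriptions. The balance of directions over all members varied with the scaling and with the arrays used. With each array centred on its median, which moves every difference down by 0.12, 40 members passed, 19 higher and 21 lower. Then 47.5% in place of 64.9% of the calls were higher. Quantile normalization gave 24 higher and 10 lower. Array weights gave 20 and 16, and leaving out muscle array 3 gave 19 and 17. Without centring, probe sets over 6 on at least 3 arrays gave 20 higher and 3 lower, and a threshold of 0.01 gave 14 and 4. By family, centring left more higher than lower calls among CC chemokines (5 and 3), CXC chemokines (4 and 3) and interleukin receptors (5 and 3), and more lower than higher calls among interleukins (3 and 6), TNF receptors (2 and 3) and chemokine receptors (0 and 3).

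Identical intensities on 2 or more arrays occurred for 28 members, 25 of them dim, and for 35.6% of all probe sets, so small differences between such values carry little information.

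**Figure D3:**
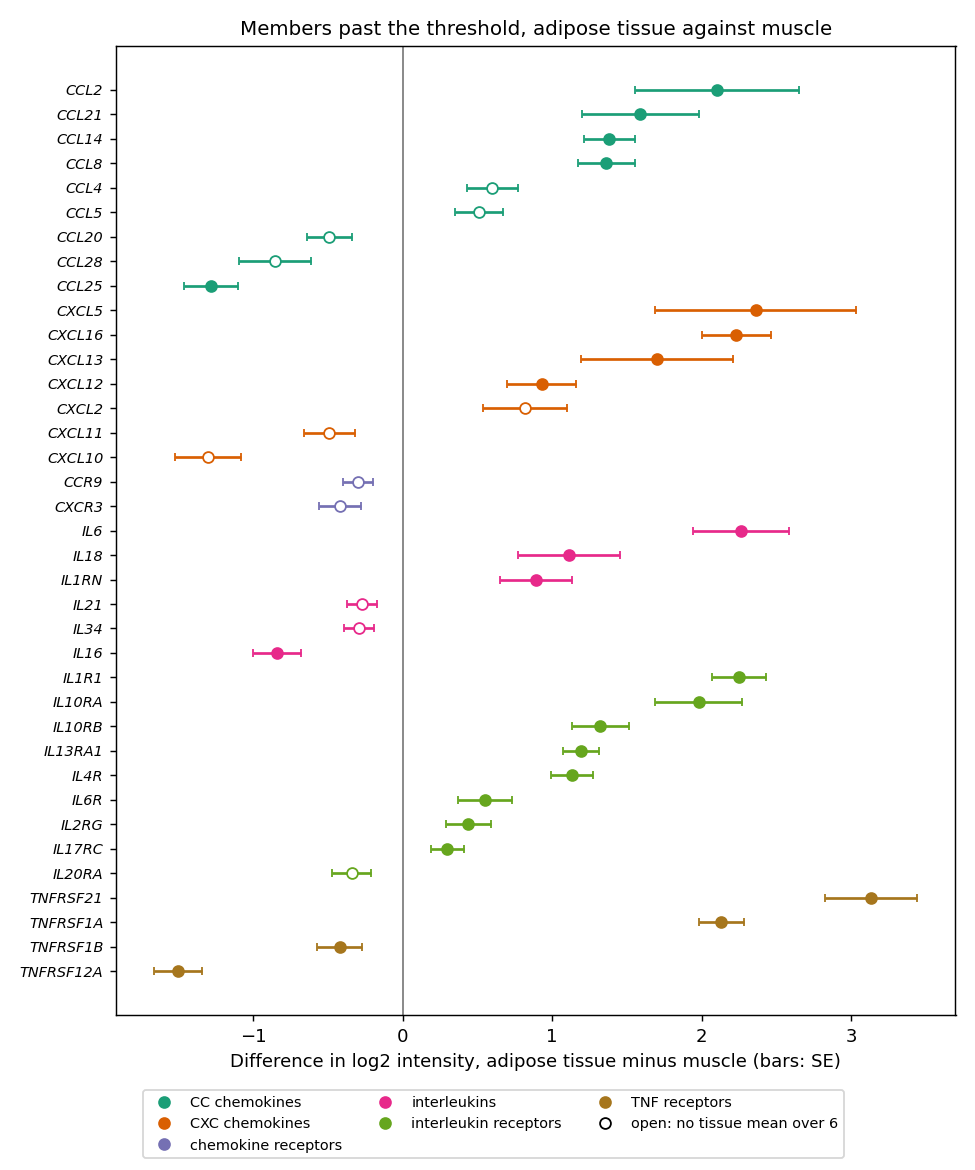
Difference in log2 intensity between adipose tissue and muscle (x axis, bars are SE) for the 37 members that passed, grouped by family from CC chemokines at the top to TNF receptors at the bottom; open circles have no tissue mean over 6. TNFRSF21 is furthest to the right at 3.13 and TNFRSF12A furthest to the left at -1.5.

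Among the CC chemokines, 6 of 14 rose and 3 fell, or 42.9% and 21.4%, beside 32% and 29.5% of all genes, with a median of 0.27. CCL2, which recruits monocytes through CCR2, had 9.70, 10.42 and 9.57 in abdominal fat, 7.32, 10.08 and 9.98 in subcutaneous fat and 7.21, 7.09 and 7.93 in muscle. Subcutaneous array 1 lay among the muscle arrays and the other 5 fat arrays lay above them (2.10 ± 0.55, adjusted p = 0.00921). Its second probe set gave 1.88 (adjusted p = 0.0149). In the comparison of subcutaneous fat alone with muscle, CCL2 passed narrowly (1.72, adjusted p = 0.0481), and without subcutaneous array 1 the difference was 2.62. That call was lost without any 1 of the other 8 arrays, at adjusted p of 0.0514 to 0.163.

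CCL8, another monocyte chemokine, had 7.45, 6.96 and 7.71 in abdominal fat, 6.53, 6.72 and 6.83 in subcutaneous fat and 5.88, 5.83 and 5.30 in muscle, with no overlap between fat and muscle (1.36 ± 0.19, adjusted p = 0.0002). CCL14 was 8.95, 9.31 and 8.77 in muscle, below every fat array (1.38 ± 0.17, adjusted p = 9.82e-05). CCL21, which lymphatic endothelium makes to guide cells that carry CCR7, averaged 6.71 ± 0.80 for abdominal fat, 6.95 ± 0.78 for subcutaneous fat and 5.23 ± 0.37 for muscle (SD, n = 3 each), a rise of 1.59 (limma adjusted p = 0.00636).

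CCL25, the thymus and gut chemokine that binds CCR9, was the brightest of the CC chemokines that fell. It had 7.48, 7.46 and 7.40 in abdominal fat, 7.79, 7.86 and 7.69 in subcutaneous fat and 9.12, 9.21 and 8.34 in muscle. Every fat array lay under every muscle array (-1.28 ± 0.18, adjusted p = 0.000211). Its other probe sets were dim and did not pass, at -0.11 and -0.56, and the mean of the 3 gave -0.65. CCR9 itself was near background in each tissue and fell by 0.30 (adjusted p = 0.0285), a call lost without muscle array 2 (0.0871), abdominal array 3 (0.0605) or subcutaneous array 3 (0.0529) and with quantile normalization (-0.16, adjusted p = 0.196).

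CCL3, a macrophage chemokine, had 3 probe sets that disagreed. The brightest did not pass (-0.19, adjusted p = 0.253; with quantile normalization -0.41, adjusted p = 0.0314), the next rose by 1.15 (adjusted p = 0.00451) and the dimmest fell by 0.56 (adjusted p = 0.00596). No direction is given for this gene. It was the only one of the 19 genes with several probe sets whose probe sets passed in opposite directions for adipose tissue against muscle. Of the other 18, 5 had all probe sets passing the same way, 4 had some passing and 9 had none.

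Among the CXC chemokines, 5 of 11 rose and 2 fell, or 45.5% and 18.2%, beside 32% and 29.5% of all genes, with a median of 0.82. CXCL16, a membrane-bound chemokine that binds CXCR6 and oxidised lipoprotein, had 10.03, 10.13 and 9.83 in abdominal fat, 9.00, 9.85 and 10.05 in subcutaneous fat and 7.28, 7.58 and 7.88 in muscle. Fat and muscle did not overlap (2.23 ± 0.23, adjusted p = 2.43e-05), and the second probe set gave 2.04. CXCL12, which retains CXCR4-bearing cells in tissue, had 9.85, 9.32 and 9.74 in abdominal fat, 10.92, 9.80 and 10.55 in subcutaneous fat and 9.17, 8.97 and 9.17 in muscle. It rose by 0.93 ± 0.23 (adjusted p = 0.00619). Taken alone, subcutaneous fat passed against muscle (1.32, adjusted p = 0.00214) and abdominal fat did not (0.54, adjusted p = 0.119). The depots themselves did not pass (-0.79, adjusted p = 0.187), so a depot difference is not shown.

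CXCL5 and CXCL13 rose in the mean of both depots by 2.36 ± 0.67 (adjusted p = 0.0136) and 1.70 ± 0.51 (adjusted p = 0.018). Taken alone, abdominal fat passed against muscle for CXCL5 (3.58, adjusted p = 0.00373) and CXCL13 (2.45, adjusted p = 0.0068). Subcutaneous fat alone did not pass for CXCL5 (1.14, adjusted p = 0.251) or CXCL13 (0.95, adjusted p = 0.212). Muscle held 3.22, 3.08 and 3.13 for CXCL5 and 5.16, 3.38 and 3.24 for CXCL13. All of these lie near background, so the sizes are not exact. Adding 32 to each intensity before log2 ended the calls of CXCL5 (1.14, adjusted p = 0.0987) and CXCL13 (0.80, adjusted p = 0.0763). Array weights ended that of CXCL13 as well (1.17, adjusted p = 0.103), as did leaving out muscle array 2 (adjusted p = 0.0814) or 3 (adjusted p = 0.08).

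CXCL10, which interferon induces and which binds CXCR3, fell. It had 4.09, 3.45 and 3.94 in abdominal fat, 3.48, 3.72 and 3.43 in subcutaneous fat and 5.15, 4.39 and 5.41 in muscle, all under 6, with no overlap between fat and muscle (-1.30 ± 0.22, adjusted p = 0.000822). With 32 added before log2 the difference was -0.52. Its neighbour CXCL11 fell by 0.49 (adjusted p = 0.034) and their receptor CXCR3 fell by 0.42 (adjusted p = 0.0288), both also near background. The CXCR3 call was lost without muscle array 1 (0.133), abdominal array 1 (0.06) or subcutaneous array 2 (0.0579). The CXCL11 call was lost without 6 of the 9 arrays, at adjusted p of 0.0547 to 0.16, and without muscle array 1 the difference was -0.31.

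None of the 8 chemokine receptors rose in adipose tissue against muscle, and CCR9 and CXCR3 fell. That is 0.0% higher and 25.0% lower, beside 32% and 29.5% of all genes. CXCR4, the receptor of CXCL12, was the only one of the 8 with a mean over 6 in any tissue. It had 7.35, 7.24 and 8.36 in abdominal fat, 6.95, 6.97 and 7.26 in subcutaneous fat and 6.98, 6.73 and 6.84 in muscle. Abdominal array 3 stood apart from the rest. Against muscle, abdominal fat passed (0.80, adjusted p = 0.0305) but the mean of both depots did not (0.51, adjusted p = 0.0871). The abdominal call was lost without any of the muscle arrays (0.0528 to 0.0852) and without abdominal array 3, when the difference was 0.44 (adjusted p = 0.0514).

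Interleukins were mostly dim: 14 of 20 did not pass, 3 rose and 3 fell, or 15.0% each way beside 32% and 29.5% of all genes, with a median of -0.12. Beside IL6, the risers were IL18 and IL1RN. IL18, an inflammasome product that drives interferon-γ, had 8.00, 8.29 and 8.86 in abdominal fat, 8.19, 8.59 and 7.73 in subcutaneous fat and 8.11, 6.55 and 6.85 in muscle. Muscle array 1 lay within the range of fat (1.11 ± 0.34, adjusted p = 0.0205). The IL18 call was lost without muscle array 2 (0.103) or 3 (0.0784) and with array weights (0.62, adjusted p = 0.166). IL1RN, the antagonist that blocks the interleukin-1 receptor, averaged 6.13 ± 0.43 for abdominal fat, 6.20 ± 0.46 for subcutaneous fat and 5.28 ± 0.27 for muscle (SD, n = 3 each), a rise of 0.89 (limma adjusted p = 0.0101), or 0.56 with 32 added before log2. The agonists IL1A and IL1B were under 6 in every tissue and differed by -0.21 and -0.28 (adjusted p = 0.139 and 0.141).

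IL16, a ligand of CD4 that attracts T cells, fell on its brightest probe set, with 6.89, 6.88 and 6.65 in abdominal fat, 6.68, 6.30 and 6.78 in subcutaneous fat and 7.58, 7.80 and 7.23 in muscle (-0.84 ± 0.16, adjusted p = 0.00133). Its second probe set differed by 0.31 (adjusted p = 0.12) and, for subcutaneous fat alone against muscle, rose by 0.51 while the brightest fell by 0.95. The mean of all 3 IL16 probe sets did not pass (-0.31, adjusted p = 0.0586). IL34, which binds the macrophage receptor CSF1R, was near background and fell by 0.29 (adjusted p = 0.0362). The IL34 call was lost without muscle array 2 (0.14) and without any 1 of the 6 fat arrays (0.0578 to 0.0687). It was also lost with array weights (-0.23, adjusted p = 0.066) and with a trended prior (adjusted p = 0.054).

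IL33 was bright in all 3 tissues, with 9.43, 8.66 and 9.05 in abdominal fat, 8.17, 7.97 and 8.56 in subcutaneous fat and 9.09, 8.29 and 8.30 in muscle, and did not pass for adipose tissue against muscle (0.08, adjusted p = 0.793). IL15, a cytokine that muscle makes in mouse and human, had the widest spread in muscle of all members, with 5.42, 6.70 and 4.23 there. The fat arrays lay between, from 5.14 to 5.35.

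Of the 19 interleukin receptor chains 8 rose and 1 fell, or 42.1% and 5.26%, beside 32% and 29.5% of all genes, with a median of 0.23. With arrays centred 5 rose and 3 fell, and with quantile normalization 5 rose and none fell. IL1R1, the signalling receptor of interleukin-1, had 7.26, 7.08 and 7.07 in abdominal fat, 7.33, 7.57 and 7.38 in subcutaneous fat and 5.06, 4.56 and 5.47 in muscle. Fat lay far above muscle, whose mean was near background (2.25 ± 0.18, adjusted p = 5.35e-06). Its decoy IL1R2, the next coding gene on the chromosome, was dim and did not pass (-0.15, adjusted p = 0.345). The accessory chain IL1RAP did not pass either (0.23, adjusted p = 0.351).

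Both chains of the interleukin-10 receptor rose, IL10RA by 1.27 when 32 was added before log2. IL10RA, the chain specific to leukocytes, had 6.36, 7.21 and 7.07 in abdominal fat, 6.58, 7.18 and 7.02 in subcutaneous fat and 5.48, 4.20 and 5.08 in muscle (1.98 ± 0.29, adjusted p = 0.00027). IL10RB, which many cells carry, averaged 7.79 ± 0.23 for abdominal fat, 8.12 ± 0.42 for subcutaneous fat and 6.64 ± 0.20 for muscle (SD, n = 3 each), a rise of 1.32 (limma adjusted p = 0.000229). No array of fat overlapped muscle for either chain. Their ligand IL10 stayed near background (0.09, adjusted p = 0.619).

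IL4R and IL13RA1, which together form the receptor of interleukin-4 and interleukin-13 outside blood cells, also rose. IL13RA1 had 9.80, 9.70 and 10.08 in abdominal fat, 10.22, 10.09 and 9.96 in subcutaneous fat and 8.82, 8.71 and 8.82 in muscle (1.19 ± 0.12, adjusted p = 2.17e-05). IL4R stood at 5.89, 6.14 and 6.46 in muscle, under every fat array (1.13 ± 0.14, adjusted p = 0.000107). Its second probe set was near background, overlapped muscle and did not pass (0.51, adjusted p = 0.0543). The second probe set of IL13RA1, also near background, passed (0.59, adjusted p = 0.0263). The ligands IL4 and IL13 were near background in every tissue. The other risers were IL6R (0.55), the common gamma chain IL2RG (0.44) and IL17RC (0.30), and IL20RA fell by 0.34 near background. The calls of IL6R, IL2RG, IL17RC and IL20RA were each lost without 2 or more of the arrays, at adjusted p of 0.061 and 0.104 for IL6R, 0.0502 to 0.0988 for IL2RG, 0.0584 to 0.123 for IL17RC and 0.057 to 0.158 for IL20RA.

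The TNF receptors held the largest difference of the 82 members for adipose tissue against muscle. Of the 7 measured, 2 rose and 2 fell, or 28.6% each way, beside 32% and 29.5% of all genes. TNFRSF21, a death receptor known as DR6, had 10.18, 9.74 and 9.21 in abdominal fat, 9.96, 9.03 and 9.95 in subcutaneous fat and 6.79, 5.87 and 7.0 in muscle. The lowest fat array, at 9.03, lay above the highest muscle array, at 7.0 (3.13 ± 0.31, or 8.74-fold, adjusted p = 2.34e-05). TNFRSF1A, the main receptor of TNF on most cells, had 10.29, 10.72 and 10.55 in abdominal fat, 10.66, 10.67 and 10.76 in subcutaneous fat and 8.60, 8.14 and 8.68 in muscle (2.13 ± 0.15, adjusted p = 2.12e-06). The depots overlapped for both receptors, with differences of 0.07 and -0.18 between them.

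TNFRSF12A, the TWEAK receptor Fn14, which injured and denervated muscle induces in mouse, ran the other way. It had 7.88, 7.84 and 7.45 in abdominal fat, 7.58, 8.16 and 7.98 in subcutaneous fat and 9.50, 9.18 and 9.27 in muscle, with no overlap (-1.5 ± 0.16, adjusted p = 3.35e-05). Its second probe set fell by 2.6 (adjusted p = 5.38e-05). TNFRSF1B, the leukocyte receptor of TNF, fell by 0.42 (adjusted p = 0.0391), with means of 5.75 for abdominal fat, 5.79 for subcutaneous fat and 6.19 for muscle. That call was lost without 8 of the 9 arrays, muscle array 3 being the exception, at adjusted p of 0.0533 to 0.173; without muscle array 2 the difference was -0.27. TNFRSF18, TNFRSF25 and TNFRSF6B did not pass on the probe sets that stand for them. The second TNFRSF25 probe set fell by 0.44 (adjusted p = 0.0199), and the third did not pass (0.06, adjusted p = 0.853).

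None of the 3 TNF ligands measured, TNFSF8, TNFSF13 and TNFSF13B, passed in limma, beside 61.4% of all genes for adipose tissue against muscle. One had an unadjusted p under 0.05, that of TNFSF8, the CD30 ligand (0.36, adjusted p = 0.0787; 0.47 with quantile normalization, adjusted p = 0.0271), and all 3 were under 6 in every tissue. Probe sets that carry TNFSF12, the ligand of Fn14, also list another gene and are not described.

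**Figure D4:**
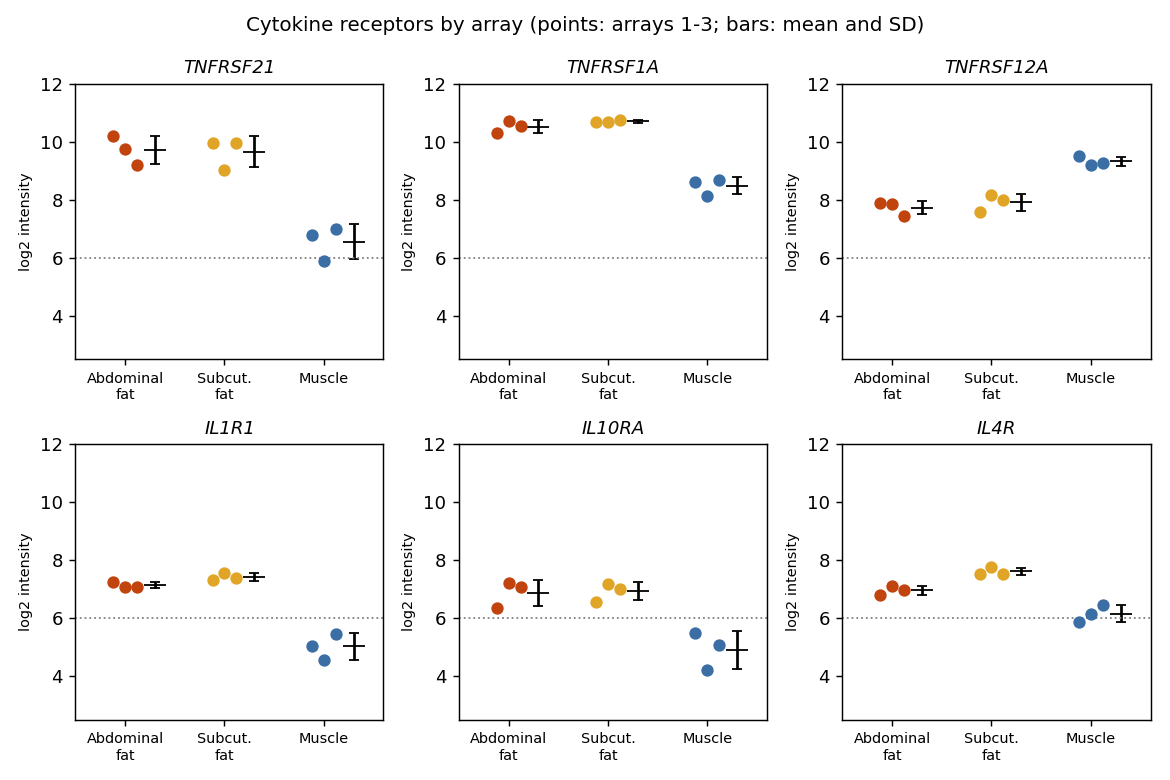
Log2 intensity (y axis) of 6 cytokine receptors on each of the 3 arrays of abdominal fat, subcutaneous fat and muscle (points), with mean and SD (bars); the dotted line marks a log2 value of 6. TNFRSF12A is higher in muscle than on any fat array, and the other 5 are higher on every fat array than on any muscle array.

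Each depot was also set against muscle alone. In abdominal fat 23 members rose and 9 fell, or 39.0% of the members. Beside this, 46.6% of all probe sets and 56.1% of the brightest probe sets of all genes passed. In subcutaneous fat 19 members rose and 9 fell, or 34.1%, beside 47% and 56.2% in the same order. With arrays centred on their medians, abdominal fat had 19 higher and 17 lower, and subcutaneous fat 15 higher and 16 lower. Without abdominal array 3, abdominal fat had 20 passing members in place of 32. Both comparisons share the muscle arrays. CXCL8, the neutrophil chemokine, rose in abdominal fat against muscle (1.40, adjusted p = 0.0419), and that call was lost without 5 of the 9 arrays (0.055 to 0.145). CCL26, which binds CCR3, rose in subcutaneous fat against muscle (1.15, adjusted p = 0.0243). The CCL26 call was lost without muscle array 1 (0.0683) or 3 (0.0769), and without subcutaneous array 3 the difference was 0.68.

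Of the 37 calls for adipose tissue against muscle, 20 held with each of the 9 arrays left out in turn and 17 did not. The 20 included CCL2, CCL8, CCL14, CCL21, CCL25, CXCL5, CXCL10, CXCL12, CXCL16, IL6, IL16 and IL1RN. The receptors among them were IL1R1, IL4R, IL10RA, IL10RB, IL13RA1, TNFRSF1A, TNFRSF12A and TNFRSF21.

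Genes that act with these families were taken from a list of 58, of which 41 were measured. For adipose tissue against muscle 20 rose and 7 fell, or 48.8% and 17.1%, beside 32% and 29.5% of all genes, and the median was 0.55, beside -0.02 over all genes; with arrays centred, 19 rose and 12 fell. The largest differences were those of the atypical chemokine receptors ACKR1 (2.72 ± 0.21), a chemokine carrier of venules, and ACKR3 (2.65 ± 0.23), the scavenger of CXCL12, then the adaptor MYD88 (2.54 ± 0.18), its kinase IRAK4 (2.39 ± 0.14) and STAT6 (2.24 ± 0.16), which carries signals of interleukin-4 and interleukin-13. STAT5B fell by 1.42 and was named after its value was seen. TNF itself was near background and did not pass (-0.12, adjusted p = 0.559). None of the 41 passed between the depots in limma, and 11 (26.8%) had an unadjusted p under 0.05, beside 18% of all genes.

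Markers of leukocytes and vessels moved with the same contrast. All 7 macrophage markers measured of 9 were higher in adipose tissue than in muscle, with a summed intensity of 5386 to 10703 in abdominal fat, 5453 to 11032 in subcutaneous fat and 1007 to 2471 in muscle. Of 4 neutrophil markers 3 rose and 1 fell, and their sum was 1393 to 3720 in abdominal fat, 681.4 to 1317 in subcutaneous fat and 219.7 to 452.0 in muscle. Of 7 endothelial markers 6 rose, and the sum was 5883 to 6522, 4527 to 5468 and 949.6 to 1054 in the same order of tissues. Of 7 T cell markers 1 rose, and 6 of them were near background in every tissue, as were both B cell markers measured and all 5 NK cell markers, though 3 of these rose (GNLY by 1.18, PRF1 by 0.54 and NKG7 by 0.48). Of 6 fibroblast markers 5 rose, with sums of 24228 to 32253 in abdominal fat, 30346 to 33601 in subcutaneous fat and 10176 to 14910 in muscle. Of 2 mast cell markers 1 rose. The part of these cells in the differences was not tested. TEK, an endothelial receptor, was the only one of these markers to pass between the depots, higher in abdominal fat (adjusted p = 0.0293).

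Members that lie side by side on the chromosome did not all move together. In the gene order of the ARS-UCD2.0 assembly, 21 members form 10 runs with no other coding gene between them. CCL8 and CCL2 rose in adipose tissue against muscle, while CCL11, which lies between them, was dim and did not pass (-0.10, adjusted p = 0.395). CCL21 rose, and its neighbour CCL19, also a ligand of CCR7, did not pass (0.01, adjusted p = 0.968). CXCL10 and CXCL11 both fell. IL4R rose and its neighbour IL21R did not pass (-0.04, adjusted p = 0.828).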

How the data were processed

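Gene expression was measured on 9 Affymetrix bovine arrays, 3 each of abdominal fat, subcutaneous fat and longissimus dorsi muscle. The deposited values are linear intensities, and the authors used RMA, per the submitters' processing notes; neither its version nor its background settings were named there. RMA adjusts for background and summarises the probes of a set into 1 value, which can shrink differences near background. Log2 of each intensity was taken with no offset. After 112 control probe sets were left out, limma 3.58.1 in R 4.3.3 fitted a mean for each tissue over all 9 arrays and 24016 probe sets, with Benjamini-Hochberg adjustment and a threshold of 0.05. Arrays carry no counts, so their number limits the precision. On simulated data for abdominal against subcutaneous fat over 24016 probe sets, 12.0%, 63.6%, 90.8% and 99.6% of changes of 0.5, 1, 2 and 4 on the log2 scale were called. Of the calls there, 7.38% were false. The simulated noise was normal and independent between arrays, which real arrays need not match. Each probe set had the same spread in all 3 tissues there, and the changed ones were drawn from all probe sets. The median SD was 0.192 over members and 0.145 over all probe sets in abdominal fat. In subcutaneous fat it was 0.21 and 0.158. The rates therefore need not hold for the members.

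Symbols came from the platform annotation, updated through gene identifiers for 13263 of the 13292 probe sets with 1 symbol; 86 had several and 10638 had none. Samples were grouped by tissue from the labels. The members, the pathway and marker lists and the rule for named genes were chosen with earlier results of these data known. The rule named up to 5 passing members of each family with the largest difference between adipose tissue and muscle (the smallest p where none passed), all that passed between the depots or had probe sets passing in opposite directions, and CXCL14 and IL6. Other members the text names (such as CXCL13's depot values, CXCR4, IL33, IL15, CXCL8, CCL26 and the ligands of named receptors) were added once their values had been seen. The settings varied were another prior, a filter on dim probe sets, median centring, quantile normalization, an offset of 32, array weights, the title number as a block, the mean of probe sets, a threshold of 0.01 and leaving out each array. Tables were handled with Python 3.11.15, pandas 2.3.3 and numpy 2.4.6. No sequences are printed, as none were used here.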

Additional observations from a re-analysis of the deposited data

Results flagged for a closer look

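Both genes below stand out because the depots lay on opposite sides of muscle or differed in their distance from it, and they were picked for that. CXCL14 had an abdominal minus subcutaneous difference of -4.19 on the log2 scale, with means of 6.55 for abdominal fat, 10.75 for subcutaneous fat and 8.53 for muscle. IL6 had a difference of 2.97, with means of 7.13 for abdominal fat, 4.16 for subcutaneous fat and 3.38 for muscle.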

How the results depend on the processing

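The number of arrays and the 46 members near background limit these results. No named difference that passed changed direction under the alternatives run. Differences from muscle that did not pass crossed 0 for CCL3 (-0.41 to 0.13) and CXCL14 (-0.2 to 0.44). With centring 40 members passed for adipose tissue against muscle, 19 higher and 21 lower, and 32 of them were among the 37. Leaving out muscle array 3 gave 19 higher and 17 lower. The offset of 32 moved IL6 to 1.77 between the depots and to 1.14 against muscle, CCR9 to -0.1, CXCR3 to -0.23 and IL34 to -0.18. For adipose tissue against muscle, the 37 members past the threshold became 23 with probe sets over 6 on at least 3 arrays and 18 at 0.01, and 25 to 36 with 1 array left out. Abdominal fat against muscle gave 32, then 19 at 0.01 and 20 to 33 with 1 array left out, the lowest without abdominal array 3. Subcutaneous fat against muscle gave 28, then 16 at 0.01 and 20 to 25 with 1 array left out. Between the depots 2 became 5 with array weights, which added CCL14, IL4R and CXCR1, and 2 to 3 with 1 array left out; the array left out added IL4R (muscle array 3, -0.65, limma adjusted p = 0.0498) or CXCL5 (abdominal array 2, 3.56, limma adjusted p = 0.00471). With the title number as a replicate block, 1 member passed between the depots: CXCL14 did, and IL6 did not (2.65, limma adjusted p = 0.0526). For adipose tissue against muscle that block left 29, and CCR9 (-0.26), IL18 (0.89) and IL34 (-0.30) were among those lost. Whether these numbers name an animal is not stated. Correlations of deviations between same-numbered arrays ran from 0.0431 to 0.362, above 0 in 7 of 7 pairs but not all over 0.1, and other pairs ran from -0.324 to 0.17, above 0 in 5 of 20. The labels tie no arrays to an animal, so the main fit had no block. These correlations do not settle whether same-numbered arrays share an animal. The causes of these changes were not tested.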
